A study of Mus musculus with 4 samples.

Results

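Glycolysis turns glucose into pyruvate and lactate through a chain of cytosolic enzymes, and 10 of its genes were followed step by step through the cells of the embryonic mouse lung: the glucose transporter Slc2a1, the hexokinases Hk1 and Hk2, and Aldoa, Tpi1, Gapdh, Pgk1, Eno1, Pkm and Ldha. The genes were taken by symbol as a set of well-known pathway members, and 10 of the 10 were listed among the 20674 genes of the deposited tables. Cells came from C57BL/6 mice. At embryonic day E16.5, 1 sample held fibroblasts of 1 lung carrying αSMA-GFP, Tbx4-Cre and Rosa26-tdTomato, sorted as positive for both the Tbx4 lineage mark and the αSMA reporter. At E17.5, 3 samples labelled WT held live cells of 1 lung each. The sort was gated on both reporters and held mostly mesenchyme with a few cells of other kinds, whereas the lungs gave epithelium, endothelium, mesenchyme and immune cells.

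In this pathway a transporter lets glucose into the cell, hexokinase traps it by phosphorylation, and the sugar is split into triose phosphates that are oxidised to pyruvate with a net yield of ATP. Lactate dehydrogenase then reduces pyruvate to lactate, which restores the NAD+ that Gapdh consumes and lets the chain run where oxygen is scarce. The fetal lung grows at low oxygen tension, and several genes of the pathway, among them Slc2a1, Pgk1 and Ldha, are textbook targets of the hypoxia-inducible factors (HIF), which bind the core sequences ACGTG and GCGTG.

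The regions upstream of 3 of these genes are shown because their transcripts had the most contrasting patterns: Hk1 and Hk2, which ran opposite to each other between cell classes, and Ldha, which was the most even of the 10. Each is the 250 bases before a RefSeq start on GRCm38.p6, read 5′ to 3′ on the gene's strand, with ACGTG or GCGTG on either strand in capitals (CACGT and CACGC are the same cores on the opposite strand). Hk2 has a single start (chr6:82774455-82774704, minus strand), Hk1 has an upstream start (chr10:62379909-62380158, minus strand) and a downstream one (chr10:62340422-62340671, minus strand), and the Ldha region shown is the upstream of 2 (chr7:46845554-46845803, plus strand).
Hk2: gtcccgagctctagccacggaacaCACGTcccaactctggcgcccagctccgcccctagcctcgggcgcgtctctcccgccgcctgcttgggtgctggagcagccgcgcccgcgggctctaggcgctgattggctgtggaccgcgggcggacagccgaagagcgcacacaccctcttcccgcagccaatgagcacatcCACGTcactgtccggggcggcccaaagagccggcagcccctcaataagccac
Hk1, upstream start: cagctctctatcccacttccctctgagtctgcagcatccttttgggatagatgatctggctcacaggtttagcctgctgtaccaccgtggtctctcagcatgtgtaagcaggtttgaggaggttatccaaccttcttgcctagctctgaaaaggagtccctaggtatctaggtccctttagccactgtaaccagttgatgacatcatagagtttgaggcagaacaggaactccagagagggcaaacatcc
Hk1, downstream start: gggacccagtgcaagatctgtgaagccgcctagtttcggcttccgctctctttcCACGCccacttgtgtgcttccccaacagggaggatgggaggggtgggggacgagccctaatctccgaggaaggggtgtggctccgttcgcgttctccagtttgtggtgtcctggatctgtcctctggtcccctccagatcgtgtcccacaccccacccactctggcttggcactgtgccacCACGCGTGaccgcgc
Ldha: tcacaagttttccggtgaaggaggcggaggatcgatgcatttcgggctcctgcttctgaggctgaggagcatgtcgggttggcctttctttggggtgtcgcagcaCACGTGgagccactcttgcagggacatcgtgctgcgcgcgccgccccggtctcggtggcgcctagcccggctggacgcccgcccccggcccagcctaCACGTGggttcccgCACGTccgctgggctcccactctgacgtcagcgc
The Hk2 region held ACGTG 226 and 52 bases before the start. The region of the upstream Hk1 start held neither core, and that of the downstream start held GCGTG 196, 15 and 12 bases before it. In Ldha, ACGTG stood on both strands as the palindrome CACGTG, which is also the E-box, at 145 and 48 bases, and once more at 34 bases. Either core was present for 9 of the 10 genes (13 of their 17 regions), Tpi1 being the one without, against 41.5% of 27025 genes and 38.6% of 32851 such regions. ACGTG alone was in 16.6% of all regions. These are matches of letters in one window and not observed binding. Some regions of Aldoa and of Eno1 overlap and share the same matches. Both cores contain CG, and neither CG content nor the number of regions per gene was matched in this comparison.

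The tables held 3085 cells of the sort and 2682, 2140 and 2657 cells of the lungs, with a median of 12007 UMIs (counted RNA molecules) per cell in the sort, against 7979, 8493.5 and 7201 in the lungs. After removal of called doublets, cells were clustered without the genes tested here and clusters were named from marker genes, so each class is called "-like". Averaged over all cells, the 10 genes made up 0.343% of a cell's UMIs in the sort, against 0.378, 0.388 and 0.366% in the lungs. The sort is mostly mesenchyme, and in mesenchyme alone the share was 0.342% in the sort, against 0.233, 0.253 and 0.213% in the lungs. Levels are given as CPM, the gene's UMIs scaled to the same total in each cell, averaged over the cells of a class, and as mean ± SD over the 3 lungs unless single values are given. Because the counts of a gene depend on its own transcript, a level is compared between cells and not between genes. Transcripts of other compartments were counted in all classes, as is usual where free RNA enters droplets: the summed immune markers stood at 160.5 to 175.4 CPM in mesenchyme, 157 to 192 CPM in endothelium and 173 to 199 CPM in epithelium, against 6848 to 7206 CPM in immune cells of the lungs. Erythroid markers summed to 98.9 to 717 CPM in endothelium, and their part in the endothelial values was not tested.

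The libraries were checked against their labels. Although 1 lung per sample is named, cells with Xist UMIs and no Y-linked UMI made up 80.1% of the sort and 66.2, 62.4 and 67.0% of the lungs, and cells with only Y-linked UMIs 11.6% of the sort and 15.5, 18.5 and 13.5% of the lungs. Nothing in the labels says whether the lungs came from separate litters. With the lung as a block, p-values measure how differences between classes vary over these 3 libraries, a spread that may be technical. Libraries shared 7 to 13 cell barcodes per pair. The smooth muscle-like class of the sort includes a cluster of 91 cells led by the cardiac genes Actc1 and Myl7, and its 30 epithelial cells were deep, with a median of 30301.5 UMIs. Lung 3 stood apart in a handful of genes, Pgk1 among them, as described at that step.

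**Figure D1:**
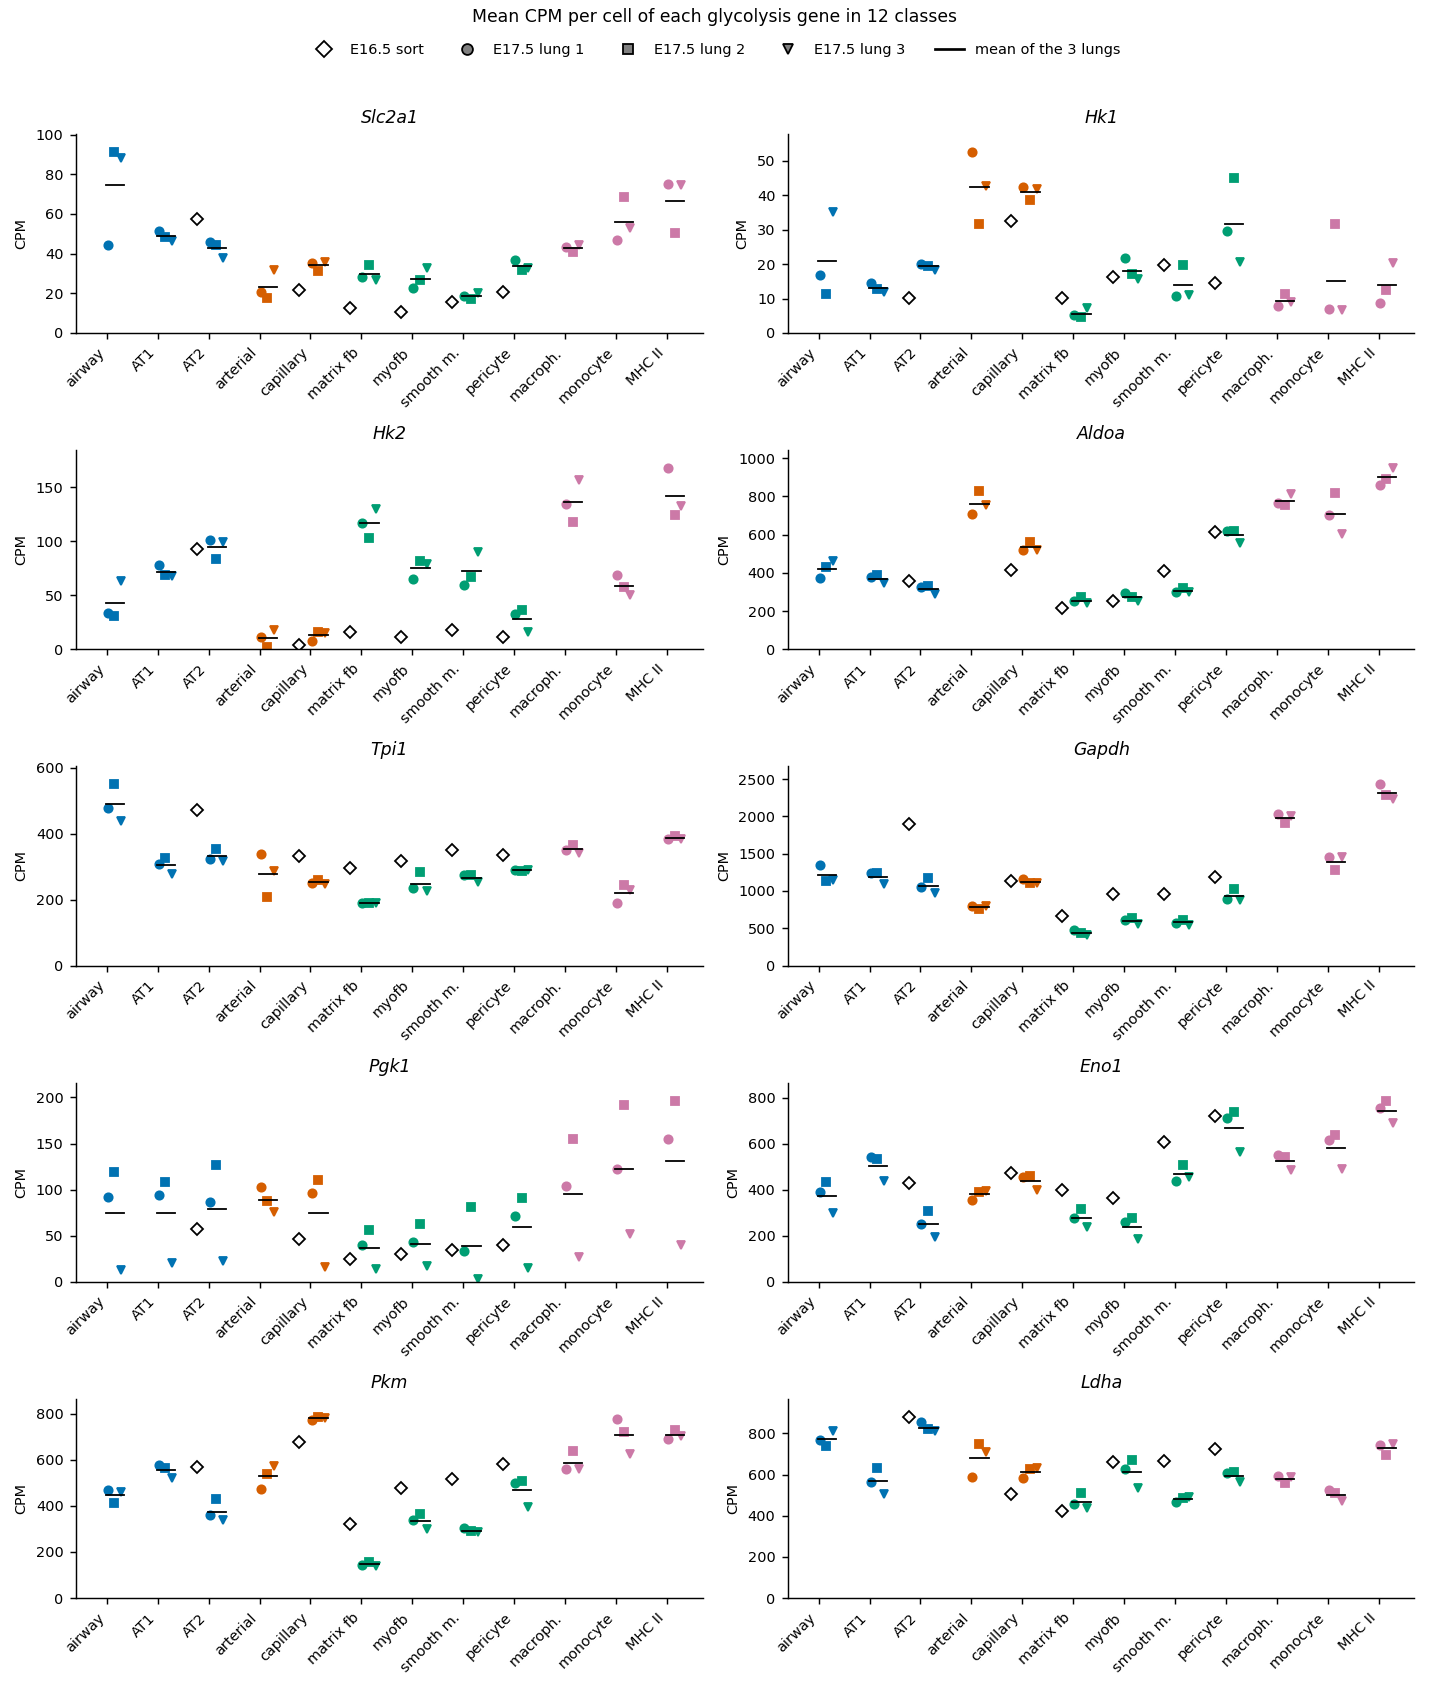
Level of each gene (y axis, mean CPM per cell) in 12 cell classes (x axis), 1 panel per gene. Diamonds are the E16.5 sort where it holds the class, circles, squares and triangles are lungs 1, 2 and 3 at E17.5, and bars are means of the 3 lungs; Hk2 runs from 10.6 CPM in arterial to 142 CPM in MHC class II-bearing cells, while Ldha stays between 468 and 829 CPM.

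In the E17.5 lungs, immune cells carried most of these transcripts and mesenchyme least. Of the 10 genes, 8 were higher and 1 lower in immune cells than in the average of the other 3 compartments, where 86.0% of all 4180 genes tested were called (28.6% higher, 57.4% lower). In mesenchyme, 9 were lower and 1, Hk2, was higher, against 77.0% of genes called (41.6% higher, 35.5% lower). Epithelium had 5 higher and 2 lower, against 76.5% called (27.6% higher, 48.9% lower), and endothelium 3 higher and 3 lower, against 78.7% called (51.7% higher, 27.0% lower). Since most genes differ between compartments, the number of genes called carries little, and the direction and the size are what can be read.

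The test was limma on log2(CPM + 10) with lungs as blocks, and a gene counted as called at a Benjamini-Hochberg adjusted p under 0.05. The difference is the compartment's log2 level minus the average log2 level of the other 3, which need not follow the pooled level of all other cells. The median difference of the 10 genes was 0.51 in immune cells (all genes -0.26), -0.45 in mesenchyme (all genes 0.04), 0.11 in epithelium (all genes -0.13) and 0.06 in endothelium (all genes 0.16). The scale itself thus leans down in immune cells and up in endothelium. Rescaling by the median of ratios, which sets that median near 0, turned the endothelial values of Gapdh, Pgk1, Eno1 and Ldha negative and made Ldha in immune cells positive.

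**Figure D2:**
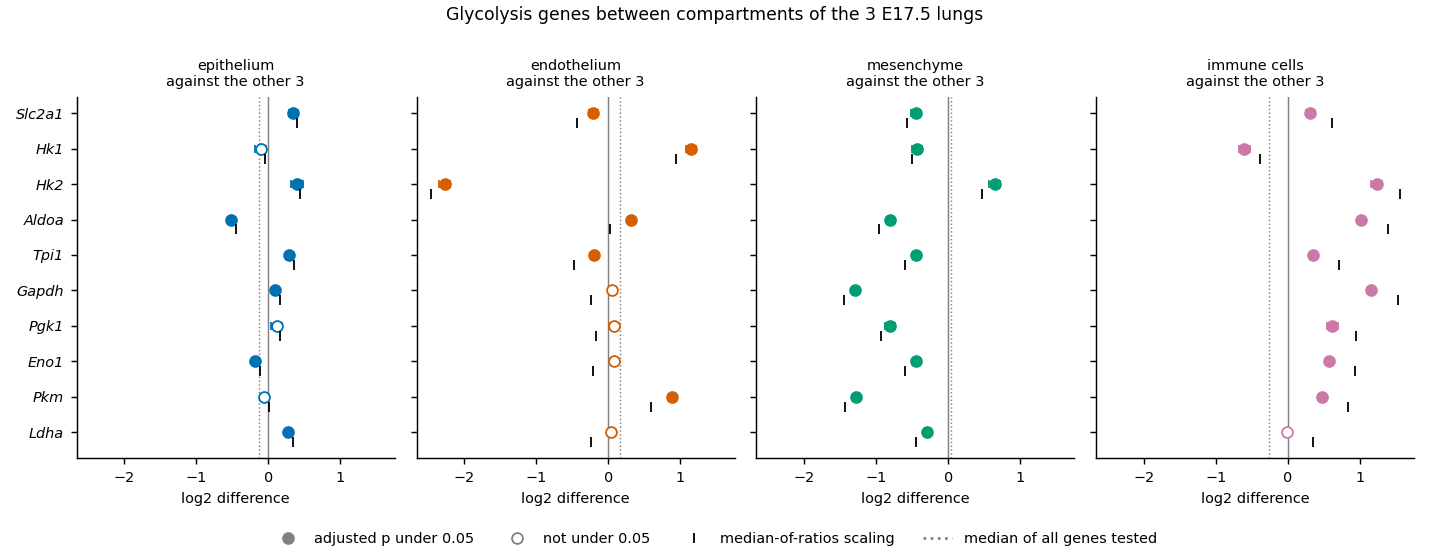
Difference of each gene between a compartment and the average of the other 3 (log2 of CPM + 10, ± SE, 3 lungs), 1 panel per compartment. Filled points passed the adjusted p of 0.05, black ticks are the value after median-of-ratios scaling and the dotted line is the median of all genes; Hk2 lies at -2.27 in endothelium and 1.23 in immune cells.

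Glucose enters most cells through GLUT1, the product of Slc2a1. Slc2a1 averaged 48.0 ± 3.08 CPM in epithelium, 33.5 ± 2.66 CPM in endothelium, 28.3 ± 1.65 CPM in mesenchyme and 46.8 ± 1.79 CPM in immune cells (SD, n = 3 lungs). It was higher in epithelium by a log2 difference of 0.35 ± 0.0633 (SE), adjusted p = 2.42e-05, and lower in mesenchyme (-0.45 ± 0.0633 (SE), adjusted p = 6.41e-07). Slc2a1 was also called higher in immune cells and lower in endothelium. The endothelial call was lost without lung 2 (-0.14, adjusted p = 0.0817, limma). Among 12 classes airway-like cells had the highest mean, but their lungs spread over 44.1, 91.3 and 88.0 CPM on 27, 37 and 43 cells and overlapped the next class, MHC class II-bearing cells (66.7 ± 14.0 CPM). Smooth muscle-like cells were lowest (18.8 ± 1.54 CPM). Of the 11 steps between neighbours in this order, 2 had lungs that did not overlap, that between alveolar type 1-like cells and macrophages and that between alveolar type 2-like cells and the capillary plexus.

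The next step, phosphorylation of glucose, was divided between 2 genes. Hk1 encodes the widely expressed hexokinase of most adult tissues and Hk2 the form known from muscle, fat and growing cells. In the capillary plexus Hk1 had 42.3, 38.6 and 41.8 CPM, against 5.11, 4.497 and 7.27 CPM in matrix fibroblast-like cells. Hk2 was the other way round, with 7.72, 15.9 and 15.04 CPM in the capillary plexus, against 117, 104 and 129.9 CPM in matrix fibroblast-like cells. The lungs of the 2 classes did not overlap for either gene. Across the 12 classes the centred log2 levels of Hk1 and Hk2 had a correlation of -0.91, a description over classes that share the same 3 libraries.

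Hk1 was highest in endothelium, at 41.0 ± 2.43 CPM, with 16.54 ± 0.762 CPM in epithelium, 12.4 ± 1.67 CPM in mesenchyme and 10.5 ± 2.48 CPM in immune cells. Its endothelial log2 difference was 1.15 ± 0.0752 (SE), adjusted p = 6.03e-13. Hk2 stood at 12.8 ± 4.202 CPM in endothelium, with 80.6 ± 7.86 CPM in epithelium, 93.0 ± 8.41 CPM in mesenchyme and 129.8 ± 13.7 CPM in immune cells, and its endothelial difference of -2.27 ± 0.0782 (SE), adjusted p = 1.18e-18, was the largest in size of any of the 10 genes in any compartment. Hk2 is also the only one of the 10 that was higher in mesenchyme (0.64, adjusted p = 6.23e-08), and it was higher in immune cells (1.23, adjusted p = 2.18e-13) and in epithelium (0.40, adjusted p = 6.76e-05).

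By class, Hk2 ran from 10.6 ± 7.90 CPM in arterial endothelium (20 to 29 cells a lung) to 142 ± 23.2 CPM in MHC class II-bearing cells, followed by macrophages (134, 118 and 157 CPM) and matrix fibroblast-like cells. These top 3 overlapped one another. In the order, matrix fibroblast-like cells and alveolar type 2-like cells (94.7 ± 9.38 CPM) did not overlap, nor did alveolar type 2-like and myofibroblast-like cells (75.2 ± 9.23 CPM). Pericyte-like cells, at 32.7, 36.1 and 15.8 CPM, lay below all other mesenchymal classes and carried Hk1 at 29.6, 45.0 and 20.7 CPM. Monocyte-like cells had Hk1 at 7.04, 31.7 and 6.63 CPM, where lung 2 alone is high and is based on 39 cells.

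**Figure D3:**
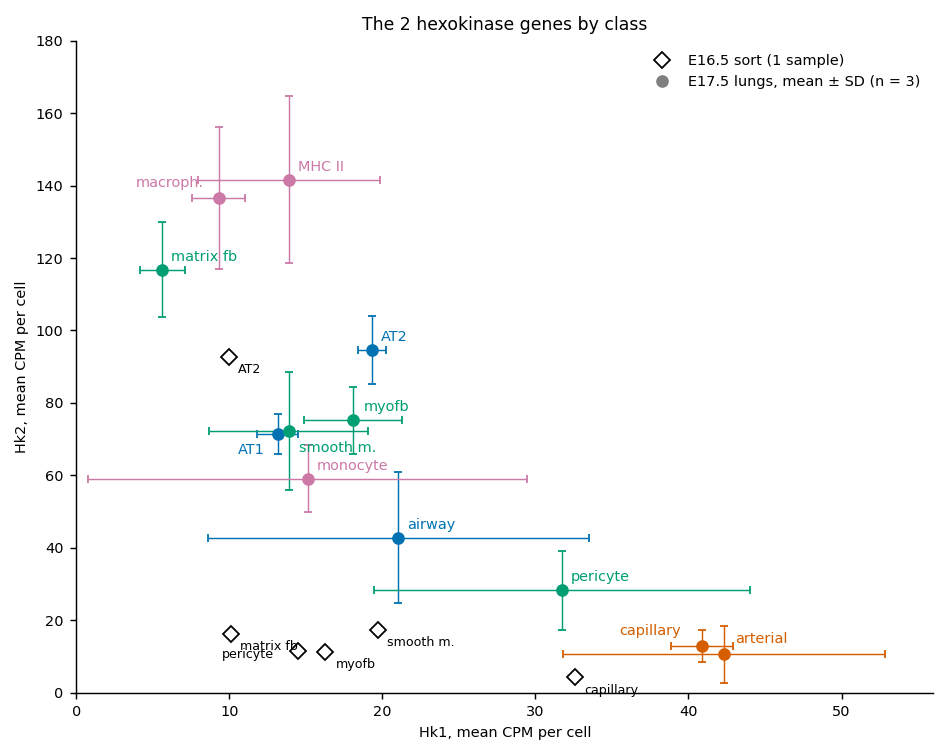
Hk1 (x axis, CPM) against Hk2 (y axis, CPM) in each class, as mean ± SD of the 3 E17.5 lungs (circles) and as single values of the E16.5 sort (diamonds). Endothelial classes lie at the lower right and macrophages, MHC class II-bearing and matrix fibroblast-like cells at the upper left, while the mesenchymal classes drawn for the sort lie between 11.3 and 17.4 CPM of Hk2.

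Aldoa, the aldolase that splits the phosphorylated hexose, was led by the immune classes. It averaged 789.8 ± 16.51 CPM in immune cells, with 350.5 ± 22.8 CPM in epithelium, 546 ± 24.0 CPM in endothelium and 299 ± 21.9 CPM in mesenchyme, and its immune log2 difference was 1.02 ± 0.0345 (SE), adjusted p = 5.3e-19. Epithelium (-0.52, adjusted p = 8.77e-13) and mesenchyme (-0.81, adjusted p = 9.68e-17) were lower. Endothelium was higher at 0.32, adjusted p = 9.46e-09, which fell to 0.03 (adjusted p = 0.446, limma) with median-of-ratios scaling. MHC class II-bearing cells were highest (899 ± 45.3 CPM) and did not overlap macrophages (777 ± 31.2 CPM). Pericyte-like cells, at 618, 619 and 557 CPM, were the one mesenchymal class near the endothelial levels, whereas matrix fibroblast-like cells were lowest of the 12 (254 ± 16.4 CPM).

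Tpi1, which interconverts the triose phosphates, followed another order, with airway-like cells first (489 ± 55.8 CPM) and clear of MHC class II-bearing cells (386 ± 5.07 CPM). Matrix fibroblast-like cells were again lowest, with 189.8, 189 and 189 CPM in the lungs, the tightest values of any class. Tpi1 was higher in epithelium (0.29, adjusted p = 8.92e-08) and immune cells (0.35, adjusted p = 1.83e-09), and lower in endothelium (-0.19, adjusted p = 3.02e-05) and mesenchyme (-0.44, adjusted p = 3.41e-11).

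Gapdh, which oxidises glyceraldehyde phosphate and makes NADH, had the widest range between classes after the hexokinases and Pkm. MHC class II-bearing cells had 2429.5, 2287 and 2229.9 CPM, macrophages 2027, 1909 and 1999.9 CPM and monocytes 1449.5, 1278 and 1451 CPM, and the lungs of these 3 classes did not overlap. Matrix fibroblast-like cells were lowest, with 473, 434 and 411 CPM, below every other class. The compartment levels were 1964 ± 55.03 CPM in immune cells, 1134 ± 87.4 CPM in epithelium, 1104 ± 25.8 CPM in endothelium and 545 ± 37.1 CPM in mesenchyme. Gapdh was higher in immune cells (1.15 ± 0.0307 (SE), adjusted p = 3.88e-21) and lower in mesenchyme (-1.29 ± 0.0307 (SE), adjusted p = 6.5e-22). The epithelial difference of 0.10 passed (adjusted p = 0.00648) and was lost without the lung block (adjusted p = 0.0607, limma), without lung 2 (log2 difference 0.05, adjusted p = 0.0886) and with called doublets kept (0.05, adjusted p = 0.138). Gapdh is often used as a reference gene. Between the highest and the lowest class its mean differed 5.27-fold.

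Pgk1, which makes the first ATP of the chain, separated the libraries more than the cells. Over all cells it had 33.5 CPM in the sort and 84.8, 113 and 21.9 CPM in the lungs. Lung 3 was at 0.198 of the mean of lungs 1 and 2 in epithelium, 0.186 in endothelium, 0.247 in mesenchyme and 0.221 in immune cells, whereas arterial cells had 103, 88.0 and 75.9 CPM. For lower levels, genes were considered at a mean of at least 20 CPM in the other lungs in every compartment. Of 3380 such genes for lung 3, 10 were at least 2-fold lower there in all 4 compartments. The counts were 0 of 3412 for lung 1 and 0 of 3367 for lung 2. Among genes with at least 20 CPM in lung 3 itself, 2 were at least 2-fold higher there in all 4 compartments. Eno1b, a near copy of Eno1, was among the 10 with Hist1h2ap, Gstp1 and 6 predicted-gene symbols (Gm10073, Gm10076, Gm10116, Gm10320, Gm10020 and Gm8186), and the 2 higher were Gm26917 and AY036118. Eno1b had 10.5 CPM in the sort and 23.8, 30.8 and 7.80 CPM in the lungs. In mesenchyme, Pgk1 had 33.2 CPM in the sort, between lung 3 and lungs 1 and 2. The animals, the making of the libraries and the annotation or mapping used for each cannot be told apart here.

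Within each lung the order of compartments was nevertheless much the same for Pgk1. Immune cells had 113, 162 and 30.4 CPM, epithelium 90.9, 117 and 20.7 CPM, endothelium 96.6, 109.6 and 19.2 CPM and mesenchyme 43.1, 65.3 and 13.4 CPM, so mesenchyme was lowest in each of the 3 lungs. The mesenchymal difference was -0.81, adjusted p = 3.61e-10 and the immune one 0.61, adjusted p = 3.2e-08. Both rest on comparing within a lung: without the block the adjusted p was 0.147 in mesenchyme and 0.253 in immune cells (limma). In the order of Pgk1 by class, 0 of the 11 neighbouring pairs had lungs that did not overlap.

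**Figure D4:**
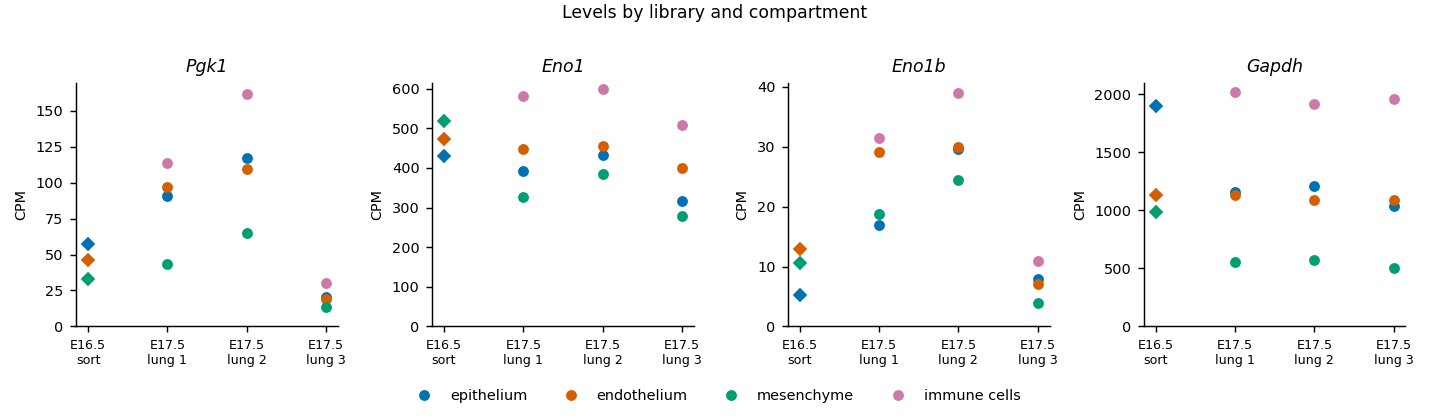
Pgk1, Eno1, Eno1b and Gapdh (y axes, mean CPM per cell) in each library (x axis), with colour for the compartment. Pgk1 and Eno1b are lower in lung 3 than in lungs 1 and 2 in every compartment, Eno1 is somewhat lower in lung 3, and Gapdh differs between compartments more than between lungs.

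Eno1, enolase, forms phosphoenolpyruvate. It was highest in MHC class II-bearing cells (744 ± 48.7 CPM), and pericyte-like cells ranked next at 710.4, 738 and 562 CPM with overlapping lungs. Alveolar type 2-like cells (250.4, 308 and 197 CPM) and myofibroblast-like cells (258, 276 and 185 CPM) were at the low end, and lung 3 was lowest in each of these 3 classes. By compartment Eno1 had 563 ± 48.2 CPM in immune cells, 381 ± 58.1 CPM in epithelium, 434 ± 30.3 CPM in endothelium and 330.2 ± 52.3 CPM in mesenchyme. It was higher in immune cells (0.56, adjusted p = 7.55e-13) and lower in mesenchyme (-0.45, adjusted p = 8.69e-11) and epithelium (-0.18, adjusted p = 0.000117; 0.0671 without the block). Eno1 may have exchanged reads with Eno1b, so both are uncertain. The testis copies Aldoart1, Aldoart2, Gapdhs, Ldhal6b and Ldhc stayed under 1 CPM in all libraries.

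Pkm, pyruvate kinase, makes the last ATP and was highest in the capillary plexus, which had 772, 785 and 782 CPM and did not overlap MHC class II-bearing cells (707 ± 21.3 CPM) in second place. Matrix fibroblast-like cells had 146, 159 and 138 CPM, below every other class, a 5.29-fold range of means. Endothelium averaged 766 ± 11.4 CPM, with 464 ± 32.8 CPM in epithelium, 241 ± 23.2 CPM in mesenchyme and 615 ± 38.9 CPM in immune cells. It was higher in endothelium (0.89 ± 0.0341 (SE), adjusted p = 1.2e-17) and immune cells (0.47, adjusted p = 3.59e-12) and lower in mesenchyme (-1.29 ± 0.0341 (SE), adjusted p = 5.92e-21). Counts per gene do not separate the splice forms of Pkm.

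Ldha, which makes lactate, was the most even gene: its means in the 12 classes differed 1.77-fold, and 0 of the 11 neighbouring pairs had separate lungs. Alveolar type 2-like cells were highest, with 854, 822 and 810.0 CPM, followed by airway-like cells (774 ± 37.8 CPM), and matrix fibroblast-like cells were lowest, with 456, 511 and 438 CPM. Epithelium had 701 ± 29.7 CPM, endothelium 618 ± 30.2 CPM, mesenchyme 517 ± 38.7 CPM and immune cells 599.5 ± 17.3 CPM. The gene was higher in epithelium (0.28 ± 0.0369 (SE), adjusted p = 2.5e-07) and lower in mesenchyme (-0.30, adjusted p = 7.28e-08). In immune cells the difference was -0.02 (adjusted p = 0.665), while median-of-ratios scaling gave 0.35 and edgeR 0.28, both called.

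The orders of the genes were then set side by side. Aldoa, Gapdh, Pgk1 and Pkm ran together over the 12 classes, with correlations of 0.75 to 0.89 between pairs, and Hk1 and Hk2 ran opposite to each other. Tpi1 and Ldha, both high in airway-like cells, had a correlation of 0.74. Matrix fibroblast-like cells had the lowest mean for 7 genes, Hk1, Aldoa, Tpi1, Gapdh, Pgk1, Pkm and Ldha, and MHC class II-bearing cells the highest for 5, Hk2, Aldoa, Gapdh, Pgk1 and Eno1. The MHC class II-bearing class held 318 cells here, against 55 with coarser clustering (Leiden resolution 0.5) and 54 with called doublets kept. Its place in the orders was not tested at those settings. Averaged over the 10 centred profiles, MHC class II-bearing cells stood at 0.65, macrophages at 0.35 and monocytes at 0.24, against -0.38 in myofibroblast-like, -0.39 in smooth muscle-like and -0.63 in matrix fibroblast-like cells (log2). These are descriptions over classes of the same 3 lungs.

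Among 1306 held-out genes at 50 CPM or more, the 8 whose pattern over the 12 classes was most like this average were Ndufb7 (r = 0.86) and Cox5a (0.86), which encode subunits of the respiratory chain, Gtf3a (0.85), a transcription factor of some ribosomal RNA genes, Tomm22 (0.85), of the outer mitochondrial import pore, Cib1 (0.85), Ctsz (0.85), a lysosomal cathepsin, Lcp1 (0.84), the actin bundler of blood cells, and Pomp (0.83), a proteasome assembly factor.

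Alveolar type 1-like cells, the flat cells of gas exchange, and alveolar type 2-like cells, which make surfactant, differed at the end of the chain. Eno1 had 544, 532 and 438 CPM in type 1-like and 250.4, 308 and 197 CPM in type 2-like cells, and Pkm 575, 564 and 520.4 CPM in type 1-like and 359, 429 and 337 CPM in type 2-like cells. Ldha had 564, 631 and 505 CPM in type 1-like and 854, 822 and 810.0 CPM in type 2-like cells. In these 3 genes the 2 classes did not overlap. Eno1 was higher in type 1-like cells by 0.99 ± 0.0943 (SE), adjusted p = 2.44e-10, Pkm was higher by 0.55 ± 0.0898 (SE), adjusted p = 1.26e-05, and Ldha was lower, at -0.55 ± 0.0834 (SE), adjusted p = 5.29e-06 (limma). They are 2 higher and 1 lower of 10, against 12.7% of 4232 genes called (6.97% higher, 5.74% lower). The remaining 7 genes did not pass, Aldoa being next at 0.23, adjusted p = 0.0819. The others were Gapdh at 0.16, Slc2a1 at 0.16, Pgk1 at -0.07, Tpi1 at -0.12, Hk1 at -0.34 and Hk2 at -0.36.

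The type 2-like class itself held 2 clusters that differed in Eno1 and Hk2. In cluster 8 (324 cells, cell cycle genes summing to 2387 CPM) Eno1 averaged 409.6 ± 62.9 CPM, against 148 ± 19.3 CPM in cluster 3 (541 cells, 149 CPM of cell cycle genes). Hk2 averaged 54.7 ± 7.12 CPM in cluster 8, against 120.4 ± 8.53 CPM in cluster 3. Cluster 8 was thus the higher in Eno1 and the lower in Hk2, without overlap between lungs. These clusters were formed without the 10 genes and the values are given as a description.

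In mesenchyme, pericyte-like cells, which wrap capillaries, had higher levels of most of the chain than matrix fibroblast-like cells. Of the 10 genes, 7 were higher and 1 lower, against 24.0% of genes called (13.8% higher, 10.3% lower). The median difference of the 10 was 0.83, against 0.05 over all genes. Pkm, at 500.03, 509.6 and 393 CPM in pericyte-like and 146, 159 and 138 CPM in matrix fibroblast-like cells, was higher by 1.59 ± 0.0898 (SE), adjusted p = 4.13e-17. Eno1 (1.24, adjusted p = 2.11e-13), Aldoa (1.20, adjusted p = 2.78e-14), Gapdh (1.07, adjusted p = 4.34e-15), Hk1 (1.38, adjusted p = 9.92e-05), Tpi1 (0.59, adjusted p = 7.04e-05) and Ldha (0.34, adjusted p = 0.00156; 0.0505 without lung 1) were higher too (limma). Hk2 was lower (-1.77 ± 0.228 (SE), adjusted p = 7.3e-08). Pericyte-like and matrix fibroblast-like cells did not overlap in these 8 genes. Slc2a1 did not pass (0.15, adjusted p = 0.66), nor did Pgk1 (0.46, adjusted p = 0.214), which passed without lung 3 at 0.65 (adjusted p = 0.0277, limma).

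Myofibroblast-like cells, the contractile cells of the future alveolar wall, were intermediate. Against matrix fibroblast-like cells 5 of the 10 were higher and 0 lower, where 20.8% of genes were called (13.1% higher, 7.75% lower). Pkm had 337, 364 and 299 CPM in myofibroblast-like cells and 146, 159 and 138 CPM in matrix fibroblast-like cells (1.12 ± 0.0898 (SE), adjusted p = 1.26e-12). Gapdh was higher by 0.44, adjusted p = 7.07e-06, and Ldha by 0.37, adjusted p = 0.000728 (limma). Hk1 (0.84, adjusted p = 0.0193) did not pass without lung 1 (adjusted p = 0.24), and Tpi1 (0.37, adjusted p = 0.0142) did not pass without lung 2, without lung 3, with median-of-ratios scaling (0.0849) or in edgeR (0.0534). Hk2 was at -0.57 (adjusted p = 0.0729) and was called as lower in edgeR and with median-of-ratios scaling. Slc2a1 (-0.09), Aldoa (0.10), Pgk1 (0.14) and Eno1 (-0.22) did not pass either.

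Macrophage-like cells were compared with monocyte-like cells, of which a lung had 39 to 69. Macrophages had higher Hk2 (1.09 ± 0.228 (SE), adjusted p = 0.000251), Tpi1 (0.66, adjusted p = 1.23e-05) and Gapdh (0.51, adjusted p = 3.91e-07) and lower Pkm (-0.26, adjusted p = 0.022; 0.342 without lung 1), with limma. This is 3 higher and 1 lower of 10, against 33.0% called (22.9% higher, 10.1% lower). Slc2a1 (-0.31), Hk1 (-0.24), Aldoa (0.14), Pgk1 (-0.42), Eno1 (-0.14) and Ldha (0.20) did not pass. With called doublets kept, clusters took other names, and Hk2 (0.28, adjusted p = 0.565), Tpi1 (0.08, adjusted p = 0.792) and Gapdh (-0.05, adjusted p = 0.777) were no longer called, in limma. The macrophages were not uniform. Cluster 12 (205 cells, led by C1qa and Pf4) had Aldoa at 439 ± 55.01 CPM, against 826 ± 36.4 CPM in cluster 2 (890 cells) and 827 ± 7.05 CPM in cluster 4 (516 cells), both led by Ear2 and Plet1. Ldha averaged 275 ± 18.1 CPM in cluster 12, against 603 ± 39.6 CPM and 661 ± 6.45 CPM in clusters 2 and 4. Hk2 overlapped, at 133 ± 17.7 CPM in cluster 12, 143 ± 22.8 CPM in cluster 2 and 127 ± 16.3 CPM in cluster 4.

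Cycling cells carried a different mix of the same genes. Cells whose 20 cell cycle genes summed to at least 500 CPM were called cycling, and 18.3 to 26.3% of the cells of a compartment lay between 250 and 1000 CPM, near that limit. Cycling cells made up 14.4 to 19.1% of epithelium, 32.3 to 40.6% of endothelium, 14.2 to 17.3% of mesenchyme and 42.2 to 44.8% of immune cells in the lungs, and 39.1% of mesenchyme in the sort. The classes differed in this share as well, with 8.16 to 11.98% of alveolar type 1-like and 20.1 to 25.0% of alveolar type 2-like cells cycling. Cycling cells were deeper in every library and compartment, such as a median of 8936 UMIs in cycling and 7172 UMIs in other immune cells of lung 1.

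In epithelium 5 of the 10 genes were higher and 3 lower in cycling cells, against 29.9% of genes called (20.5% higher, 9.43% lower). In endothelium 1 was higher and 2 lower, against 19.8% (11.2% higher, 8.59% lower). Mesenchyme had 1 higher and 4 lower, against 19.8% (11.2% higher, 8.56% lower), and immune cells 2 higher and 0 lower, against 24.6% (15.8% higher, 8.80% lower). Gapdh is the one gene called in all 4, always higher in cycling cells, by 0.32 in epithelium, 0.21 in endothelium, 0.27 in mesenchyme and 0.16 in immune cells. The immune call was lost in edgeR, with median-of-ratios scaling, without the lung block (adjusted p = 0.0787), without lung 1 (0.0606), without lung 3 (0.054) and with the cycle limit at 250 CPM (0.0982) or 1000 CPM (0.22), and the endothelial call without lung 1 (0.066), with limma where a p is given. Genes not called in cycling cells lay between -0.32 (Slc2a1) and 0.04 (Tpi1) in endothelium, -0.27 (Hk1) and 0.14 (Pkm) in mesenchyme, and -0.19 (Hk1) and 0.12 (Ldha) in immune cells, and in epithelium were Slc2a1 (0.10) and Pgk1 (0.35). Within macrophages of lungs 1, 2 and 3, Ldha (0.19, 0.19 and 0.18), Eno1, Pkm, Pgk1 and Aldoa were higher in cycling cells. Hk2 was lower there (-0.21, -0.18 and -0.33), and Slc2a1 and Hk1 differed in sign between lungs. Cycling cells made up 52.6 to 53.0% of macrophages and 19.6 to 23.4% of MHC class II-bearing cells. The part of these shares in the immune values was not tested.

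Aldoa was lower in cycling cells of 3 compartments. It averaged 221 ± 23.0 CPM in cycling and 377 ± 27.2 CPM in other epithelial cells (-0.75 ± 0.0638 (SE), adjusted p = 1.08e-11, limma). In endothelium it averaged 418 ± 21.3 CPM in cycling and 622 ± 26.1 CPM in other cells (-0.56 ± 0.0638 (SE), adjusted p = 1.11e-08), and in mesenchyme 216 ± 23.5 CPM in cycling and 315 ± 24.0 CPM in other cells (-0.53 ± 0.0638 (SE), adjusted p = 4.98e-08). Cycling and other cells did not overlap in these 3 compartments. In immune cells Aldoa averaged 803 ± 17.3 CPM in cycling and 779 ± 16.005 CPM in other cells (0.04, adjusted p = 0.715). The lower level in cycling cells was also seen by class, with log2 differences of -0.93, -0.77 and -0.82 in alveolar type 2-like, -0.44, -0.55 and -0.51 in alveolar type 1-like and -0.49, -0.80 and -0.91 in matrix fibroblast-like cells of lungs 1, 2 and 3, against 0.09, 0.08 and 0.11 in macrophages.

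In the sort, matrix fibroblast-like cells had Aldoa at 142 CPM in cycling and 256 CPM in other cells (log2 difference -0.80), and myofibroblast-like cells at 201 CPM in cycling and 273 CPM in other cells (log2 difference -0.42). Pericyte-like cells of the sort had 559 CPM in cycling and 697 CPM in other cells (log2 difference -0.31), and smooth muscle-like cells 413 CPM in cycling and 406 CPM in other cells (log2 difference 0.03). The lower level was thus seen in 3 of the 4 classes of the sort and not in smooth muscle-like cells. Over the whole sorted mesenchyme the difference was 0.04. Cycling cells made up 59.8% of pericyte-like and 35.8% of matrix fibroblast-like cells of the sort, and the part of these shares in that value was not tested.

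Hk2 was lower in cycling epithelium, at 52.2 ± 3.81 CPM in cycling and 86.3 ± 8.30 CPM in other cells (-0.63, adjusted p = 0.000458), and in cycling mesenchyme, at 58.0 ± 12.9 CPM in cycling and 99.2 ± 8.56 CPM in other cells (-0.70, adjusted p = 0.000213), with limma. Tpi1 was higher in cycling epithelium, at 463 ± 27.3 CPM in cycling and 303 ± 22.7 CPM in other cells (0.60, adjusted p = 8e-10), and in cycling immune cells, at 393 ± 20.3 CPM in cycling and 300.1 ± 15.8 CPM in other cells (0.38, adjusted p = 8.44e-06). Eno1 was higher in cycling epithelium (0.36, adjusted p = 1.7e-05, not called in edgeR), and within alveolar type 2-like cells its difference was 1.16, 1.19 and 1.06 in the 3 lungs, against 0.18, 0.07 and 0.51 within alveolar type 1-like cells. The part of the uneven class shares in the epithelial values was not tested, other than by these values within a class. The type 2-like values do not separate cycling from cluster, since clusters 8 and 3 differ in both cell cycle genes and Eno1. Pkm (0.24, adjusted p = 0.00142) and Ldha (0.22, adjusted p = 0.0102) were higher in cycling epithelium and not called in edgeR or with median-of-ratios scaling, and neither passed without lung 1 (0.0746 for Pkm, 0.136 for Ldha), nor Ldha without lung 2 (0.0938). Hk1 was lower in cycling epithelium (-0.49, adjusted p = 0.00609), which was lost without lung 1 (0.128) and with the cycle limit at 250 CPM (0.276) or 1000 CPM (0.124). The weakest calls were Hk1 in endothelium (-0.38, adjusted p = 0.0466), Slc2a1 in mesenchyme (-0.43, adjusted p = 0.0142; 0.0849 without lung 2 and 0.274 without lung 3) and Ldha in mesenchyme (-0.19, adjusted p = 0.0447). With any 1 lung left out, neither Hk1 in endothelium (adjusted p 0.109 to 0.254, limma) nor Ldha in mesenchyme (0.0595 to 0.166) passed.

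The differences themselves were compared between compartments. Aldoa's difference in immune cells was 0.65 above that in the other 3 (adjusted p = 5.2e-08, limma), 1 higher and 0 lower of 10 against 9.09% called (3.44% higher, 5.65% lower). In epithelium 3 were higher, Tpi1 (0.42, adjusted p = 9.31e-05), Eno1 (0.35, adjusted p = 0.000746) and Ldha (0.25, adjusted p = 0.0326), and 1 lower, Aldoa (-0.40, adjusted p = 0.000304), against 10.7% called (7.03% higher, 3.71% lower). In endothelium 2 were lower, Tpi1 (-0.32, adjusted p = 0.00415) and Eno1 (-0.29, adjusted p = 0.00885), against 5.89% (2.34% higher, 3.54% lower). In mesenchyme 1 was lower, Ldha (-0.29, adjusted p = 0.0207), against 4.83% (1.79% higher, 3.04% lower).

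**Figure D5:**
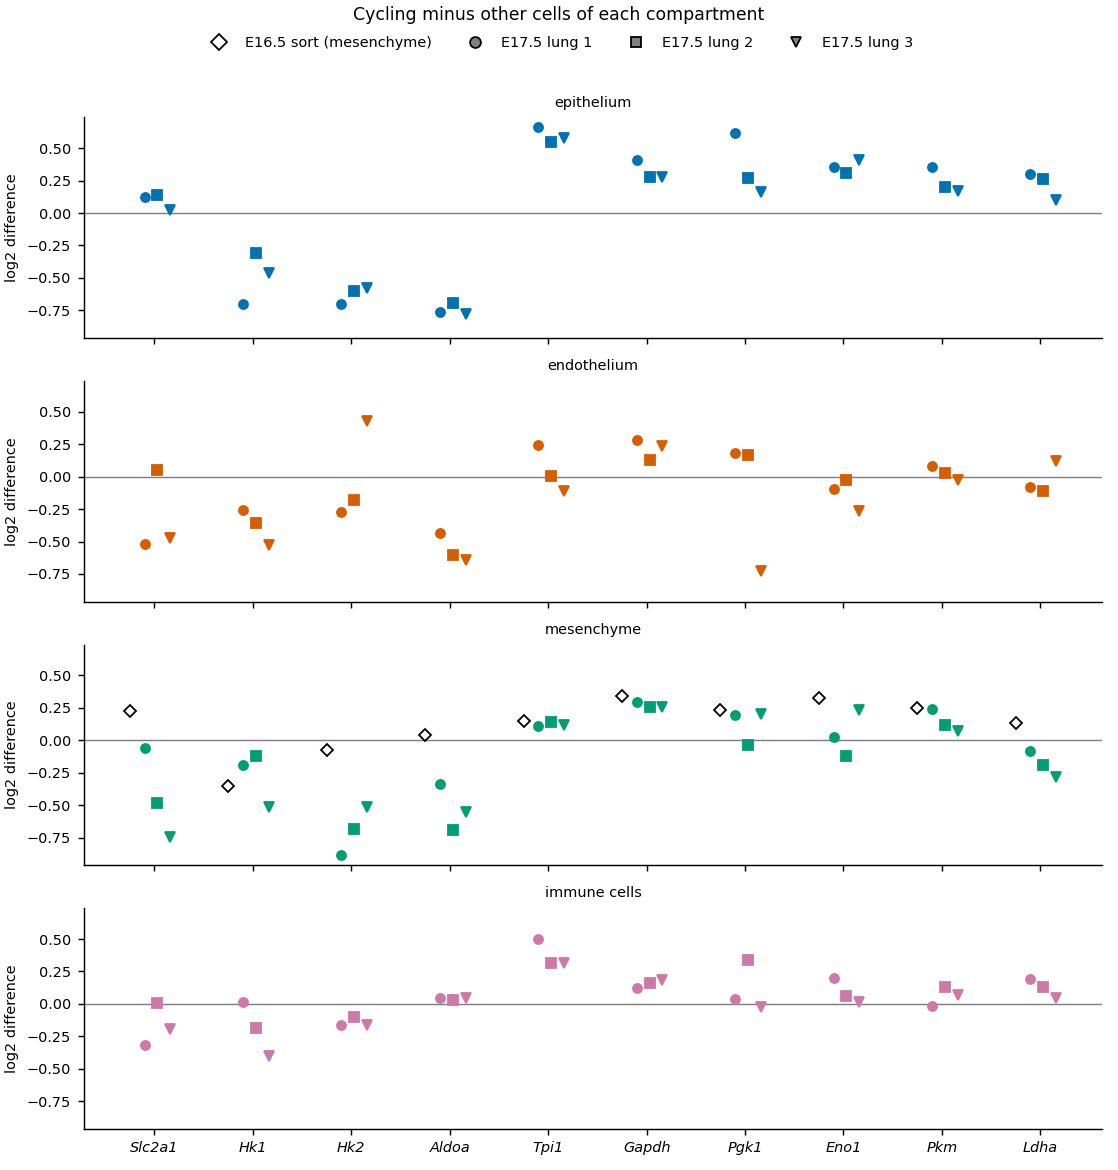
Difference between cycling and other cells (y axis, log2 of CPM + 10) for each gene (x axis), 1 panel per compartment, with circles, squares and triangles for lungs 1, 2 and 3 and diamonds for the sort in mesenchyme. Aldoa lies below 0 in the lungs' epithelium, endothelium and mesenchyme and close to 0 in immune cells, and Gapdh lies above 0 in the 4 panels.

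The E16.5 sort and the E17.5 lungs shared 3 mesenchymal classes large enough to set side by side. With 1 sort there is no test, and stage, genotype, sorting and library cannot be told apart. A gene at 50 CPM or more in either was counted as apart when the sort's level exceeded that of every lung by 1.5-fold or more, or fell short of every lung by as much. In matrix fibroblast-like cells (505 in the sort, 306 to 419 a lung), of 7 genes 2 were higher and 1 lower, where 21.7% of 1535 genes were apart (11.3% higher, 10.4% lower). Of the sort's cells of this class, 112 formed a cluster led by Ptn and Figf, with 3 of 8 matrix fibroblast markers raised. With called doublets kept, a cluster of 121 cells led by the same genes was named adventitial. In myofibroblast-like cells (1125, and 131 to 185 a lung) 1 of 7 was higher and 1 lower, where 16.4% of 1642 genes were apart (5.60% higher, 10.8% lower). In pericyte-like cells (1057, and 56 to 73 a lung) 0 of 7 were apart, where 16.7% of 1597 genes were (5.51% higher, 11.1% lower).

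Of the 10 genes, Hk2 separated the sort most. In matrix fibroblast-like cells it had 16.2 CPM in the sort, against 117, 104 and 129.9 CPM in the lungs (ratio 0.138 to the lungs' mean). In myofibroblast-like cells it had 11.3 CPM in the sort, against 64.7, 81.9 and 79.1 CPM in the lungs (ratio 0.150). The sort's level was low in every mesenchymal class, while its 30 epithelial cells carried 92.8 CPM, against 80.6 ± 7.86 CPM in lung epithelium. The sort's counts behind these levels were 87 UMIs, or 15.8 CPM of the summed counts (95% exact Poisson interval 12.7 to 19.5) in matrix fibroblast-like and 158 UMIs, or 11.6 CPM of the summed counts (95% exact Poisson interval 9.82 to 13.5) in myofibroblast-like cells, intervals that cover counting error only. In pericyte-like cells Hk2 was 11.4 CPM in the sort, against 32.7, 36.1 and 15.8 CPM in the lungs, under the 50 CPM asked for.

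The genes apart in the other direction act later in the chain. Gapdh in myofibroblast-like cells had 955 CPM in the sort, against 612, 631 and 551 CPM in the lungs (ratio 1.60), close to the 1.5-fold limit against lung 2, and was no longer apart with called doublets kept or in CPM of summed UMIs. In matrix fibroblast-like cells Pkm had 321 CPM in the sort, against 146, 159 and 138 CPM in the lungs (ratio 2.18), and Tpi1 had 296 CPM in the sort, against 189.8, 189 and 189 CPM in the lungs (ratio 1.56). The sort lay outside the lungs in these 3 cases. Aldoa was within 1.5-fold, at 615 CPM in the sort, against 618, 619 and 557 CPM in the lungs for pericyte-like cells. Slc2a1, under 50 CPM and not counted, was 10.6 CPM in the sort, against 22.8, 26.8 and 32.7 CPM in the lungs for myofibroblast-like cells.

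The contrast between pericyte-like and matrix fibroblast-like cells had the same sign in the sort as in the lungs' mean for each of the 10 genes, and its size differed. With 1 sort the difference in size has no test. The log2 difference of Aldoa was 1.47 in the sort and 1.20 ± 0.06 in the lungs, and that of Gapdh 0.84 in the sort and 1.07 ± 0.16 in the lungs (SD, n = 3). Pkm differed by 0.83 in the sort and 1.59 ± 0.14 in the lungs, and Hk1 by 0.28 in the sort and 1.38 ± 0.55 in the lungs. Hk2 differed by -0.29 in the sort and -1.77 ± 0.60 in the lungs. Ldha went the other way in size, at 0.76 in the sort and 0.34 ± 0.08 in the lungs.

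Other measures moved with the sort. Early response genes, known to be induced by tissue digestion as well as by signals, summed to 3568 CPM in the mesenchyme of the sort, against 17937 to 19128 CPM in that of the lungs, and 17 of 18 considered were lower in the sort in each of the 3 classes. Fos in matrix fibroblast-like cells was at 664 CPM in the sort, against 4154 ± 245 CPM in the lungs. Erythroid markers summed to 388 CPM in pericyte-like cells of the sort, against 23.3 to 61.3 CPM in those of the lungs. The marker lists themselves were weaker in the sort: matrix fibroblast markers summed to 2141 CPM in its matrix fibroblast-like cells, against 4181 to 4491 CPM in the lungs. Cell cycle genes summed to 1208 CPM in myofibroblast-like cells of the sort, against 187 to 289 CPM in those of the lungs. In matrix fibroblast-like cells they summed to 1785 CPM in the sort, against 613 to 1005 CPM in the lungs. In pericyte-like cells the sums were 2219 CPM in the sort, against 835 to 1719 CPM in the lungs. The part of each of these in the differences above was not tested.

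The rest of the pathway list, 41 further genes of glycolysis, its side branches and pyruvate entry, of which 40 were listed and 25 were abundant enough to test, was tested in the same fits. In immune cells 13 were higher and 8 lower, led by Taldo1 of the pentose phosphate branch (681 ± 31.8 CPM, 2.09), the lactate exporter Slc16a3 (60.7 ± 4.39 CPM, 1.95) and Pgd (1.76) and G6pdx (1.71), which make NADPH. In mesenchyme 5 were higher and 16 lower, with Gpi1, the isomerase after hexokinase, at -1.42 and Pdk1, which restrains pyruvate dehydrogenase, at -0.81. Endothelium had 6 higher and 16 lower, with Gpi1 at 334 ± 17.4 CPM (0.98) and Ldhb, the other lactate dehydrogenase subunit, at -1.23. Epithelium had 12 higher and 11 lower, with Bsg, the partner of lactate transporters, at 2.18, Ldhb at 1.56 and the transporter Slc16a1 at 1.38. All values named passed in limma, and the background shares are those given above.

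Between classes, pericyte-like cells had 7 of the 25 higher and 1 lower than matrix fibroblast-like cells, with Slc16a3 at 1.31, the phosphofructokinase Pfkp at 1.06 and the mutase Pgam1 at 0.73. Myofibroblast-like cells had 6 higher and 1 lower, with Slc16a3 at 1.03 and Pfkp at 0.72. Alveolar type 1-like cells had 3 higher and 4 lower than type 2-like cells, with Eno3 at 1.18 and Ldhb at -1.01. Macrophages had 8 higher and 5 lower than monocytes, with Aldoc at 1.35 and Eno3 at -2.68. Over all genes tested, 24.0% were called for pericyte-like, 20.8% for myofibroblast-like, 12.7% for alveolar type 1-like and 33.0% for macrophage-like cells in these comparisons. In cycling cells, of the 23 genes of the list tested there, 5 were higher and 5 lower in epithelium, 3 and 6 in endothelium, 1 and 2 in mesenchyme, and 2 and 3 in immune cells. Over all genes tested there, 29.9% were called in epithelium, 19.8% in endothelium, 19.8% in mesenchyme and 24.6% in immune cells. The counts in mesenchyme and immune cells were not above these shares. Pgam1 rose in cycling epithelium (0.38) and mesenchyme (0.19), and Pdk2 fell in cycling endothelium (-0.69) and mesenchyme (-0.43).

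A further list of 24 genes joined pathway regulators and hypoxia genes, and 22 of them were tested. It includes regulators such as Myc, Mycn, Tfam and Ppargc1a, so its counts are not a readout of hypoxia alone. The list had 4 higher and 16 lower in immune cells, 12 and 5 in mesenchyme, 10 and 10 in epithelium, and 8 and 6 in endothelium. Over all genes tested, 28.6% were higher and 57.4% lower in immune cells, and the shares of the other compartments are given above. In pericyte-like against matrix fibroblast-like cells 2 were higher and 6 lower, and in alveolar type 1-like against type 2-like cells 2 and 2. Over all genes, 13.8% were higher and 10.3% lower in the former comparison, and 6.97% and 5.74% in the latter. Between the sort and the lungs, 0 of the list were higher in the sort in the 3 mesenchymal classes, where 5.51 to 11.3% of all genes considered were. In myofibroblast-like cells 3 of 8 considered were lower, where 10.8% of 1642 genes were. The 3 were Bnip3, Mxi1 and Myc, named here after their values were seen. Bnip3, a mitophagy receptor, had 56.8 CPM in the sort, against 143, 142 and 142 CPM in the lungs. Myc, a growth regulator, had 8.36 CPM in the sort, against 75.7, 98.3 and 67.1 CPM in the lungs. Of the pathway list, Ldhb alone was apart, in pericyte-like cells, where 14 of the list were considered and 5.51% of 1597 genes were higher. Ldhb had 70.3 CPM in the sort, against 39.9, 31.2 and 22.0 CPM in the lungs.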

How the data were processed

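Single-cell RNA-seq libraries of 1 E16.5 sort and 3 E17.5 lungs were analysed, with groups taken from the labels. Tools named in the submitters' processing notes are Cell Ranger 1.3.1 and Seurat 3.0.0. No genome build was given in the sources used here. As deposited, the values are signal on a linear scale in which every cell of a sample sums to that sample's median UMI total. Within a cell, 100% of values were integer multiples of the smallest (tolerance 0.01), so UMI counts were recovered from the deposited signal. Total UMIs were 41038008 in the sort, against 23996253, 20347458 and 21358915 in the lungs. There were 0 columns that matched no sample.

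CPM was the value divided by the cell's sum, scaled to 1e6. Doublets were called per library with the Scrublet method of scanpy 1.11.5 under Python 3.11.15 (30 cells of the sort, and 36, 34 and 26 of the lungs, or 0.972% and 1.34, 1.59 and 0.979%) and removed. Genes were split by a seeded hash, marker genes were used for clustering and list genes were held out. The sort was clustered alone and the 3 lungs together (2000 variable genes, 30 components, 15 neighbours, Leiden resolution 1 with leidenalg 0.10.2, no batch correction). Naming required at least 3 raised markers, a rule set after the clusters had been seen.

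Differences between classes of the lungs were tested with limma 3.58.1 (R 4.3.3) on log2(mean CPM + 10), with the lung as a block, for genes averaging 10 CPM or more and classes with at least 20 cells in each lung. Fold changes on this scale understate the change of low genes. Same-numbered classes come from the same lung, and their mean correlations after removal of class means were 0.20 to 0.41 between compartments, 0.08 to 0.16 between subclasses and 0.12 to 0.24 in the cycling fit. edgeR 4.0.16 on the recovered counts was an alternative. In simulated data with known changes, the share of false calls was above the nominal one for endothelium, for macrophages against monocytes and for cycling endothelium and mesenchyme. Of simulated 2-fold changes, 66.7 to 72.0% were found between subclasses, against 92.0 to 100% between compartments and in cycling cells. A gene that did not pass between subclasses may thus still differ. The comparison of Car4-positive with capillary plexus endothelium was not made, since no such cluster formed.

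The rule for naming took the 10 genes in every class and comparison, with some genes that did not pass given only by their range or in the plots, and of the pathway list at most the 4 largest called changes. The members and all lists were chosen with earlier results of these data known. Upstream sequences are from RefSeq.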

Additional observations from a re-analysis of the deposited data

Results flagged for a closer look

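The cycling difference of 4 genes was not the same in all compartments by the test of the difference itself (limma interaction, 3 lungs, adjusted over 4180 genes). Aldoa was 0.65 (log2) above the other compartments in immune cells (adjusted p = 5.2e-08) and -0.40 in epithelium (adjusted p = 0.000304). Tpi1 was 0.42 in epithelium (adjusted p = 9.31e-05) and -0.32 in endothelium (adjusted p = 0.00415; 0.136 without lung 3). Eno1 was 0.35 in epithelium (adjusted p = 0.000746; 0.0917 without the lung block) and -0.29 in endothelium (adjusted p = 0.00885; 0.201 without lung 3). Ldha was 0.25 in epithelium (adjusted p = 0.0326) and -0.29 in mesenchyme (adjusted p = 0.0207), and neither passed with median-of-ratios scaling (0.185 in epithelium, 0.0715 in mesenchyme). The values of Aldoa and Tpi1 passed with that scaling and in edgeR.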

How the results depend on the processing

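Of 1240 values of the 10 genes under the alternatives, 1085 kept their direction and side of the threshold, 60 lost and 39 gained a call, 44 moved and 12 reversed. Reversed values came from scaling in endothelium (median of ratios: Gapdh -0.24, Pgk1 -0.17, Eno1 -0.21, Ldha -0.25; edgeR: Gapdh -0.19, Eno1 -0.20, Ldha -0.24) and for Ldha in immune cells (0.35, edgeR 0.28). With doublets kept, Tpi1 between type 1-like and type 2-like cells became 0.35 and Gapdh between macrophages and monocytes -0.053; clusters then took other names. Ldha in cycling mesenchyme was 0.0085 at a limit of 250 CPM. The cause was not tested elsewhere.

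Counts of all genes called moved with no filter on low values (5195 in epithelium, 5243 in endothelium, 5268 in mesenchyme, 6037 in immune cells, with more genes tested). Between type 1-like and type 2-like cells, 538 genes and 3 of the 10 became 356 genes with a pseudocount of 1, 1341 and 6 in edgeR, 816 and 6 with doublets kept, and 317 to 407 genes without 1 lung. Myofibroblast-like cells had 1498 genes in edgeR against 881. Macrophages had 7 of the 10 with median-of-ratios scaling and 461 genes and 2 of the 10 with doublets kept, against 1397 and 4. For cycling, epithelium had 5 of the 10 in edgeR, 5 to 9 without 1 lung and 706 genes at 250 CPM, against 8 and 1251. Endothelium had 5 with median-of-ratios scaling, and 1 to 3 with 476 to 623 genes without 1 lung, against 3 and 827. Mesenchyme had 3 to 4 with 540 to 648 genes without 1 lung, and 297 genes at 250 CPM, against 5 and 828. Immune cells, with 2 and 1028, had 1 with median-of-ratios scaling, 4 in edgeR, 1 at 250 CPM, 1 at 1000 CPM, and 1 to 2 with 680 to 771 genes without 1 lung.

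Without the replicate block, which pairs classes of one lung, immune cycling had 1 call, and the adjusted p of Pgk1 was 0.147 in mesenchyme and 0.253 in immune cells (limma). Between the sort and the lungs, a 2-fold limit left 1 of 2 genes (129 of 269 over all genes) in myofibroblast-like, 100 of 266 genes in pericyte-like and 140 of 333 in matrix fibroblast-like cells. In myofibroblast-like cells 1 gene, Hk2, remained apart with doublets kept and with summed UMIs. In pericyte-like cells 0 to 1 were apart without 1 lung, the 1 being Pgk1 without lung 3. The Car4-positive endothelial comparison was not run. Only 3 lungs and 1 sort limit these values, and classes of 20 to 70 cells give unsteady levels of Hk1 and Hk2.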
